A study of Mus musculus with 180 samples.

Results

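The genes described here are 10 genes of the integrated stress response and the unfolded protein response: Atf4, Atf3, Ddit3, Chac1, Trib3, Asns, Xbp1, Hspa5, Herpud1 and Dnajb9. They were chosen by symbol, and the symbols were matched to Ensembl identifiers through the gene list of the embryoid body files. All 10 were found in each RNA table, out of 12730 genes in the table of mouse embryonic stem cells (ESCs), 12735 in the table of epiblast-like cells (EpiLCs) and 12746 in the ESC table that also holds the F1 lines. By their textbook roles, Atf4, Atf3, Ddit3, Chac1, Trib3 and Asns were taken as the ATF4 arm. Xbp1, Hspa5, Herpud1 and Dnajb9 were taken as the endoplasmic reticulum (ER) arm.

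The series holds 180 samples, of which the bulk RNA libraries and the chromatin libraries of ESCs and EpiLCs were used. ESCs are pluripotent cells kept in naive conditions, and EpiLCs are ESCs moved to a formative, epiblast-like state. The RNA groups were 3 ESC lines of strain B6 (the short name of C57BL/6; lines B41, B44 and B51), 3 of strain D2 (DBA/2; D29, D55 and DAC203), 3 of their F1 hybrid B6D2F1/J (F116, F117 and F124, ESCs only) and 33 BXD lines. BXD strains are recombinant inbred strains, so each is a fixed mosaic of B6 and D2 chromosomes. No transgene, deletion or drug is named for any group. Each line gave 1 library per state, from the RNA of 1000000 cells. The replicates of a group are lines, and no label says how many embryos or clones stand behind each. The p-values therefore measure the spread between lines, which for 1 library per line includes technical error.

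Values are the authors' normalized RNA signal, whose library totals lay between 902250 and 1115271 in ESCs and between 875065 and 1230020 in EpiLCs. The read depth behind them is unknown. The ESC and EpiLC tables were normalized separately, so strain differences and the order of lines are compared between the states, and levels are not. All 9 naive markers were listed in ESCs, with sums of 2131 to 3696 over the BXD lines, and all 7 EpiLC markers in EpiLCs, with sums of 1311 to 3598. For each of 33 BXD lines, the ESC library that best matched the EpiLC library was that of the same line. The match used 320 genes called between B6 and D2 in both states, with differences over 1 on the log2 scale in the same direction. Lines BXD81, BXD84, BXD99 and BXD161 stood apart in that the genes of chromosome 11 had a median deviation from the mean of the lines of 0.32 to 0.38 in ESCs and 0.25 to 0.50 in EpiLCs, on the log2 scale. Xbp1 lies on this chromosome, and the co-variation results that rest on these lines are given with and without them. Smaller shifts were those of chromosome 8, which holds Herpud1, in ESCs of BXD90 (0.26; its Herpud1 signal ranked 4 of 33) and of chromosome 11 in EpiLCs of BXD49 (-0.22; its Xbp1 signal ranked 32). In bulk RNA, fewer cells of a type and less RNA per cell cannot be told apart.

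Cells under stress phosphorylate the translation factor eIF2, which lowers protein synthesis in general but raises translation of the Atf4 mRNA. ATF4 protein then binds C/EBP-ATF response elements and turns on genes of amino acid supply and of the stress response itself. Misfolded protein in the ER acts in addition through the kinase and nuclease IRE1, which splices Xbp1 mRNA into its active form, and through ATF6, and both raise ER chaperones and ER-associated degradation. ATF4 activity is set largely by translation and XBP1 activity by splicing, and the RNA signal reports neither: it gives total Atf4 and Xbp1 mRNA.

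The promoter sequences of the 2 arms come first. Windows of 300 bases, 250 before and 50 after the RefSeq start (GRCm38.p6), were found for 10 of 10 members. The C/EBP-ATF response element was searched as TGATGNAA on both strands, and it was found in 5 of 10 member promoters against 3.97% of 32851 promoters. The 5 were those of Atf3 (first base 110 before the start), Chac1 (193 before), Herpud1 (112 before), Asns (23 before) and Trib3 (14 after). The classical ER stress response element, searched as CCAAT and CCACG parted by 9 bases, was found only in the Hspa5 promoter among the members, 65 bases before the start, and in 0.119% of all promoters. ER stress response element II, searched as ATTGG and CCACG parted by 1 base, was found only in the Herpud1 promoter, 52 bases before the start, and in 0.0365% of all. The unfolded protein response element TGACGTGG was in no member window and in 0.676% of all. All 4 motifs were searched on both strands. These distances hold for the RefSeq start: the GENCODE spans given below for Asns, Hspa5 and Atf3 begin 45, 120 and 34706 bases upstream of it, so that their elements lie inside the GENCODE gene. Below, 5 promoters are shown, each as the 250 bases before the start and along the gene's own strand, because 4 of them hold the C/EBP-ATF element and the fifth the ER stress element. Capitals mark the motif matches, TTGCATCA being the element read on the other strand. The windows are chr2:119350992-119351241 (plus strand) for Chac1, chr1:191183334-191183583 (minus) for Atf3, chr6:7693210-7693459 (minus) for Asns, chr8:94386179-94386428 (plus) for Herpud1 and chr2:34771840-34772089 (plus) for Hspa5.
Chac1: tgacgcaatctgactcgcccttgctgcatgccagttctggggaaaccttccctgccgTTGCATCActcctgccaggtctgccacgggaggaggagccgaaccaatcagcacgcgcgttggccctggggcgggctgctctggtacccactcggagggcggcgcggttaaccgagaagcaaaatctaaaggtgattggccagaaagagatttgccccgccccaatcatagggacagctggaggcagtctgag
Atf3: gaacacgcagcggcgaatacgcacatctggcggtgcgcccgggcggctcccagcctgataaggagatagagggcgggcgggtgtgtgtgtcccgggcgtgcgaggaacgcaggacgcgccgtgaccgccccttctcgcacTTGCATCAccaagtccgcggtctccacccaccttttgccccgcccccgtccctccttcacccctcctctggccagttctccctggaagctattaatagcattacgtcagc
Asns: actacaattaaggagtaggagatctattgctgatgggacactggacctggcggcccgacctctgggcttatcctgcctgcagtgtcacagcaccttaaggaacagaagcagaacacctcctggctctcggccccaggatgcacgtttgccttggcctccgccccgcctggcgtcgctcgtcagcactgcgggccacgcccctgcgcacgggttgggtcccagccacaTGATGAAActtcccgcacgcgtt
Herpud1: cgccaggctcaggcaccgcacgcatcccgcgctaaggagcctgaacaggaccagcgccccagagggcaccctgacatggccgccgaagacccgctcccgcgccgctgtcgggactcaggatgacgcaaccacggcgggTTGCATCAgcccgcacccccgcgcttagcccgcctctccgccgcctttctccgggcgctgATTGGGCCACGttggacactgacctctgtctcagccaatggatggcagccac
Hspa5: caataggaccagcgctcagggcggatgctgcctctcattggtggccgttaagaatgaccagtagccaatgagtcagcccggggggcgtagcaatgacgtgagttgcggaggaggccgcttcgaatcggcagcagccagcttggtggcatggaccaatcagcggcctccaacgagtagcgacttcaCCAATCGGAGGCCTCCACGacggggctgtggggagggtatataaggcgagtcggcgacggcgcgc
Herpud1 was the only member whose window held both a C/EBP-ATF element and an element of the ER stress class. A match of letters is a description of the sequence and not a measured binding site.

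In EpiLCs, all 6 genes of the ATF4 arm were lower in D2 than in B6, and Herpud1 was lower with them. Xbp1 was higher in D2, and the chaperone genes Hspa5 and Dnajb9 did not pass the test. Each difference is the D2 mean less the B6 mean of log2(signal + 1), tested with limma over 12692 genes with Benjamini-Hochberg adjustment and a threshold of 0.05. Of all genes, 57.5% were called in either direction (28.5% higher and 29% lower in D2), against 8 of the 10 members (1 higher and 7 lower).

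Chac1, on chr2:119351229-119354381 (ENSMUSG00000027313), encodes an enzyme that degrades glutathione. Its EpiLC signal was 15.2, 12.7 and 14 in B6 lines B41, B44 and B51, and 3.08, 2.67 and 2.19 in D2 lines D29, D55 and DAC203. The groups did not overlap, and the B6 mean was 5.27 times the D2 mean. The log2 difference was -2.04 (SE 0.123, limma adjusted p = 8.89e-08), larger in size than that of 98.1% of genes. Atf3, a stress-induced transcription factor gene on chr1:191170296-191218039 (ENSMUSG00000026628), had values of 8.21, 7.04 and 6.99 in the B6 lines and 0.928, 1.42 and 1.62 in the D2 lines. Every D2 line was below every B6 line, and the difference was -1.87 (SE 0.14, limma adjusted p = 5.61e-07).

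Trib3 encodes a pseudokinase that feeds back on ATF4, and Ddit3 encodes CHOP, a transcription factor of prolonged stress. Trib3 (chr2:152337422-152344032, ENSMUSG00000032715) measured 33, 30.8 and 32.1 in B6 EpiLCs and 15.2, 13.4 and 15 in D2 EpiLCs, a difference of -1.09 (SE 0.0861, limma adjusted p = 8.22e-07). Ddit3 (chr10:127290774-127296288, ENSMUSG00000025408) measured 6.72, 7.20 and 8.64 in B6 and 3.75, 3.42 and 3.02 in D2, a difference of -0.95 (SE 0.124, limma adjusted p = 4.89e-05). Both had D2 lines wholly below the B6 lines.

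Asns encodes asparagine synthetase, whose transcription is a classical response to a lack of amino acids. Asns (chr6:7675169-7693254, ENSMUSG00000029752) measured 194, 173 and 168 in B6 EpiLCs and 99.6, 94.9 and 89.4 in D2 EpiLCs. The difference was -0.91 (SE 0.0799, limma adjusted p = 2.07e-06), and the groups did not overlap. Atf4 itself (chr15:80255184-80257541, ENSMUSG00000042406) differed least of the arm: its signal was 326, 334 and 312 in B6 and 291, 263 and 260 in D2. That was a difference of -0.26 (SE 0.0754, limma adjusted p = 0.0118). It missed the threshold without D55 (0.0598) and without DAC203 (0.0595).

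In the ER arm, Herpud1, which helps to degrade misfolded ER protein, measured 20.6, 19.2 and 19.1 in B6 EpiLCs and 11.8, 11.5 and 10.1 in D2 EpiLCs (chr8:94386438-94395377, ENSMUSG00000031770). The difference was -0.77 (SE 0.0936, limma adjusted p = 2.9e-05), in the direction of the ATF4 arm. Xbp1 (chr11:5520659-5525893, ENSMUSG00000020484), the transcription factor that IRE1 activates, measured 41.7, 34.8 and 34.6 in B6 and 67.7, 69.6 and 73.4 in D2, so that every D2 line was above every B6 line. Its difference was 0.91 (SE 0.0888, limma adjusted p = 4.82e-06). Hspa5 (chr2:34771970-34777547, ENSMUSG00000026864), the main ER chaperone BiP, measured 920, 1132 and 933 in B6 and 1008, 948 and 866 in D2, and these values overlapped. Its difference of -0.08 gave a limma adjusted p of 0.512. Dnajb9 (chr12:44205559-44210326, ENSMUSG00000014905), an ER co-chaperone of BiP, measured 12.2, 13.8 and 12.2 in B6 and 10.9, 11.3 and 12.3 in D2, a difference of -0.14 (limma adjusted p = 0.241). Non-overlap of the 3 B6 and 3 D2 lines was itself common in EpiLCs, at 63.7% of genes.

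**Figure D1:**
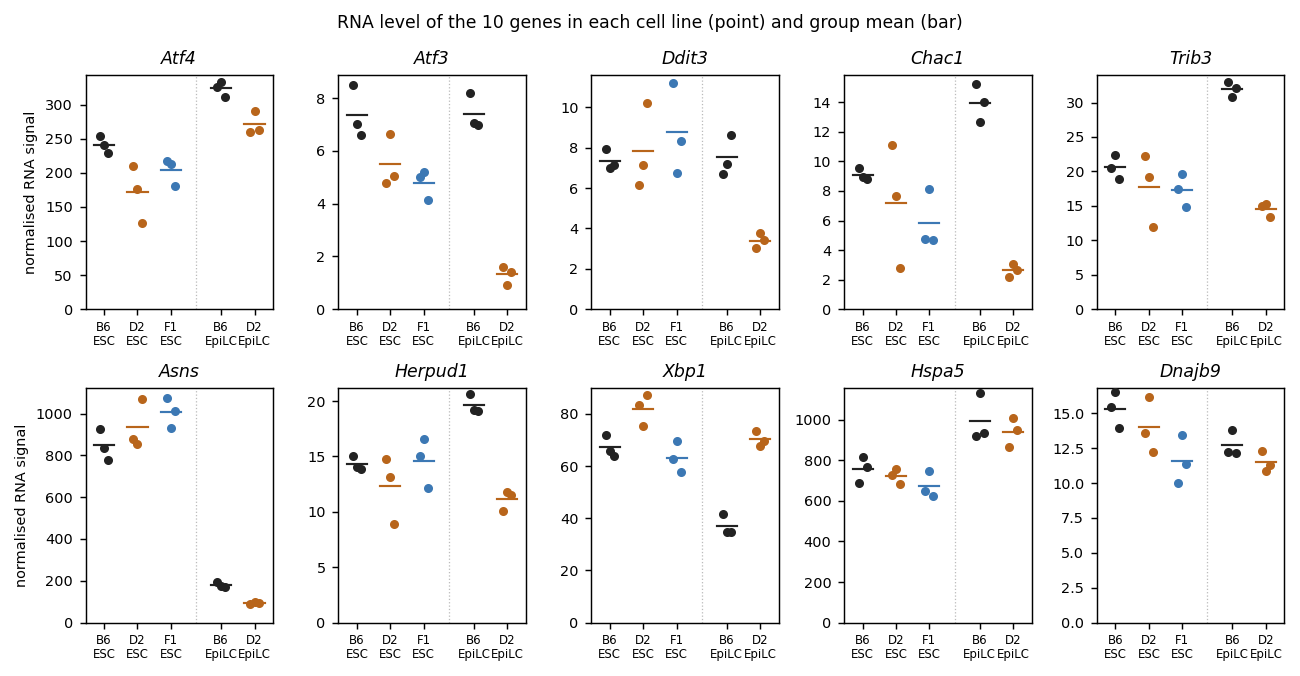
Normalized RNA signal (vertical axes, from 0) of the 10 genes in each B6, D2 and F1 line in ESCs and each B6 and D2 line in EpiLCs (points), with group means (bars). The dotted line parts the ESC and EpiLC tables, which were normalized separately, so levels are not to be compared across it; right of it, the D2 points of Atf3, Ddit3, Chac1, Trib3, Asns and Herpud1 lie below the B6 points and those of Xbp1 above.

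Markers of cell state differed with the same strain contrast. The summed signal of 8 of 9 naive markers in the EpiLC table was 80.8 to 87.1 in B6 and 141 to 165 in D2, with 6 of 8 called higher in D2. The sum of 6 of 10 primitive endoderm markers was 60.9 to 78 in B6 and 80.6 to 234 in D2, with 4 of 6 called higher. The sum of 7 EpiLC markers was 2785 to 3450 in B6 and 3009 to 3019 in D2. Fibroblast markers (14 of 17 in the table) summed to 294 to 383 in B6 and 305 to 434 in D2. The part of these markers in the EpiLC differences was not tested.

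In ESCs the same contrast gave 2 called members: Atf4 was lower in D2 and Xbp1 was higher. Of 12694 genes, 37.6% were called by the same limma test (17.3% higher and 20.3% lower in D2), so 2 of 10 members is below the background share. Atf4 measured 254, 241 and 229 in B41, B44 and B51, and 210, 176 and 127 in D29, D55 and DAC203, a difference of -0.52 (SE 0.157, limma adjusted p = 0.0277). Xbp1 measured 72.0, 65.9 and 63.9 in B6 and 83.6, 75.2 and 87.4 in D2, a difference of 0.28 (SE 0.0869, limma adjusted p = 0.0305). For both genes the strains did not overlap, as for 51.4% of genes. Neither call was stable: each was lost in 3 of 6 fits that left out 1 line, Atf4 without any one B6 line (adjusted p 0.0678 to 0.0997) and Xbp1 without B44, B51 or D29 (0.0883 to 0.123).

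The other ATF4-arm genes did not pass the ESC test, and several had 1 D2 line far from the others. Atf3 had a difference of -0.37 (SE 0.156, limma adjusted p = 0.0908), and it was called lower when D55 was left out (-0.49, limma adjusted p = 0.034). Chac1 measured 9.58, 8.93 and 8.78 in B6 and 11.1, 7.63 and 2.81 in D2, with the lowest value in DAC203. Its difference was -0.46 (SE 0.345, limma adjusted p = 0.329), and 0.018 without DAC203. Trib3 was also lowest in DAC203, at 11.9 against 22.3 and 19.2 in D29 and D55 and 20.5, 22.3 and 18.9 in the B6 lines. Herpud1 followed, with 8.89 in DAC203 and 13.2 to 15.1 in the other 5 parental lines. Asns went the other way, with its highest parental value in DAC203, 1071, against 779 to 928 in the other 5 lines. Ddit3 was also highest there, at 10.2 against 6.16 to 7.93. Dnajb9 measured 13.9 to 16.5 in B6 and 12.3 to 16.2 in D2, and Hspa5 690 to 816 and 685 to 757, and neither passed the test. Among markers, 6 of 7 EpiLC markers in the ESC table summed to 165 to 219 in B6 and 302 to 376 in D2, and 5 of 10 primitive endoderm markers to 159 to 185 in B6 and 224 to 285 in D2. Their part in the ESC result was not tested.

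**Figure D2:**
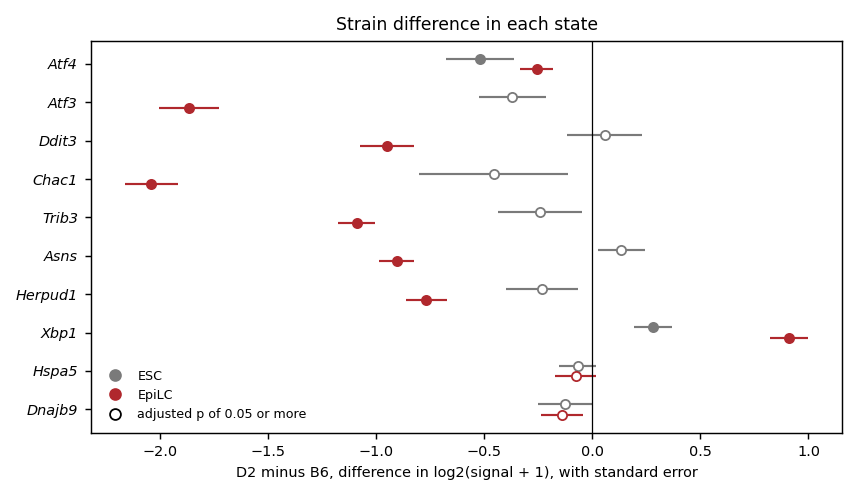
D2 minus B6 difference in log2(signal + 1) for each gene (horizontal axis) with its standard error (bars), from 3 lines per strain in ESCs (grey) and in EpiLCs (red); filled points have a limma adjusted p under 0.05 over all genes. The EpiLC points of Chac1 (-2.04) and Atf3 (-1.87) lie farthest to the left, and Xbp1 lies right of 0 in both states.

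Whether the strain difference itself changed with the state was tested as an interaction of strain and state for 11745 genes, and 36.0% of genes were called (20% higher and 16% lower in EpiLCs). Among the members 7 were called, 6 lower and 1 higher. Atf3 changed by -1.50 (SE 0.215, limma adjusted p = 8.31e-05). Asns changed by -1.04 (adjusted p = 4.02e-05 by limma), Ddit3 by -1.01 (0.00224), Trib3 by -0.85 (0.00927) and Chac1 by -1.58 (0.017, SE 0.446). Xbp1 changed by 0.63 (limma adjusted p = 0.00132). Herpud1 changed by -0.53 (limma adjusted p = 0.0451), and this call held in only 1 of 12 fits without 1 line. Atf4 did not pass, at 0.26 (limma adjusted p = 0.285), nor did Hspa5 (-0.01) and Dnajb9 (-0.01).

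The F1 lines asked whether hybrid ESCs lie midway between the strains. No member was called by limma against the midparent value, and 3.29% of 12700 genes were. The members with the smallest limma adjusted p were Xbp1 (-0.23, 0.135), Dnajb9 (-0.32, 0.16) and Atf3 (-0.35, 0.168), and none of them passed the threshold. Xbp1 measured 62.6, 69.6 and 57.6 in F116, F117 and F124, within or below the range of the B6 lines, and Atf3 measured 5.02, 5.21 and 4.13. Chac1 measured 4.73, 8.11 and 4.66 in the F1, and it was called lower only when DAC203 was left out (-0.61, limma adjusted p = 0.0477). This comparison uses the parental libraries of the ESC strain comparison.

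Other genes known as ATF4 targets went with the arm in EpiLCs. Of 44 such genes tested (of 46 listed), 34 (77.3%) were lower and 5 (11.4%) higher in D2 by limma, against 29% and 28.5% of all genes. Their median difference was -0.41 against 0.0012 for all genes. Vldlr, a lipoprotein receptor gene, was 10.4 ± 1.62 in B6 and 1.66 ± 0.419 in D2 (mean ± SD, n = 3), with a difference of -2.10 (limma adjusted p = 3.03e-07). Stc2, a secreted glycoprotein gene, was 18.8 ± 0.262 in B6 and 3.90 ± 0.0671 in D2 (-2.01, limma adjusted p = 1.18e-08), and Aldh1l2, of mitochondrial folate metabolism, differed by -1.73. The exceptions included Gdf15, a stress cytokine gene (0.81), Sesn2, a nutrient-sensing regulator gene (0.52), and the amino acid transporter gene Slc1a4 (0.39), all called higher. In ESCs 11 of 44 (25%) were lower and 3 (6.82%) higher, against 20.3% and 17.3% of all genes. The lower share was thus near that of all genes, and the median was -0.09 against -0.04 for all genes. Stc2 (-1.25), the growth regulator gene Ddit4 (-1.21) and the amino acid transporter gene Slc38a2 (-0.87) were the lowest there, and Pycr1 of proline synthesis (0.69) the highest. The interaction was called lower in 23 (52.3%) and higher in 4 (9.09%) of the 44, against 16% and 20% of all genes.

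Other ER folding and degradation genes were called in EpiLCs in shares near those of all genes. There 14 of 42 (33.3%) were higher and 11 (26.2%) lower in D2, against 28.5% and 29% of all genes, with a median of 0.06. Derl3, of ER-associated degradation, was higher (1.03, limma adjusted p = 3.61e-05), as were Wfs1, an ER membrane protein gene (0.61), and Syvn1, an ER ubiquitin ligase gene (0.54). Sec24d, of the coat of vesicles leaving the ER, was lower (-1.31, limma adjusted p = 7.77e-07), as were Tmem50b (-0.67) and the disulfide oxidase gene Ero1l (-0.58). Derl3 (0.83) and Wfs1 (0.82) were higher and Sec24d lower (-0.69) in D2 ESCs too, where 12 of 42 (28.6%) were higher and 5 (11.9%) lower, against 17.3% and 20.3% of all genes. The interaction was called lower in 9 (21.4%) and higher in 3 (7.14%) of these 42, against 16% and 20%.

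Upstream of the ATF4 arm, the eIF2 kinase genes differed in opposite directions. Eif2ak4, which encodes GCN2, the kinase that senses uncharged tRNA, was lower in D2 in ESCs, at 21.7 ± 2.9 against 41.4 ± 2.8 in B6 (-0.90, limma adjusted p = 0.000311; mean ± SD, n = 3). It was lower in EpiLCs as well, at 23.9 ± 0.61 against 34.8 ± 2.04 (-0.52, limma adjusted p = 0.00018). Eif2ak3, which encodes PERK, the ER stress kinase, was higher in D2 in ESCs (0.40, limma adjusted p = 0.0138) and in EpiLCs (0.45, limma adjusted p = 0.00444). Eif2ak2, the double-stranded RNA kinase gene, was lower in both (-0.43 and -0.39). Of 18 sensors and their regulators, 3 were higher and 2 lower in ESCs (27.8% called, where 37.6% of all genes were), and 4 were higher and 3 lower in EpiLCs (38.9% called, where 57.5% were).

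Over the 33 BXD lines the signal of several members ranged widely, in EpiLCs above all. Chac1 in EpiLCs ran from 1.77 in BXD81 through a median of 9.55 to 61.8 in BXD65, and its standard deviation on the log2 scale, 1.07, was above that of 98.3% of genes. Atf3 ran from 1.32 in BXD81 through 4.23 to 28.3 in BXD68, and Asns from 56.3 in BXD81 through 124.9 to 323 in BXD68. Trib3 ran from 12 in BXD81 through 24.3 to 93.0 in BXD68, Herpud1 from 8.44 in BXD81 through 18.7 to 51 in BXD65, and Ddit3 from 2.96 in BXD69 through 5.69 to 22.8 in BXD68. For these genes the same lines stood at the ends: BXD68 and BXD75 were among the 5 highest of 33 for all 6, and BXD81, one of the chromosome 11 lines, was among the 5 lowest for all 6.

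Atf4 shared the upper end of this order: its 3 highest lines, BXD65, BXD68 and BXD49, were also the 3 highest for Herpud1. Atf4 ran from 190 in BXD84 through a median of 325 to 619 in BXD65. Hspa5 spread little, from 790 in BXD64 through 1057 to 1821 in BXD71, a standard deviation above that of only 34.0% of genes. Dnajb9 ran from 8.85 in BXD95 through 16 to 28.3 in BXD65. Xbp1 ran from 29 in BXD62 through 50.5 to 130 in BXD84, a chromosome 11 line.

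In ESCs the log2 ratio of the highest to the lowest line was smaller than in EpiLCs for 9 of 10 members, and larger for Hspa5 (1.296 against 1.205). The same count was not made over all genes. The standard deviation of Atf4, 0.35 on the log2 scale in both states, was above that of 59.8% of genes in ESCs and 42.6% in EpiLCs. More genes thus exceeded this spread in EpiLCs. For Atf3 the shares were 64.7% and 96.2%. Chac1 ran from 1.63 in BXD154 through 4.74 to 18.3 in BXD99, and Trib3 from 8.27 in BXD49 through 16.2 to 38.6 in BXD84. BXD99 was among the 5 highest for 4 of the 6 genes named above in ESCs, and among the 5 lowest for 4 of them in EpiLCs. Atf4 ran from 96.3 in BXD81 through 145 to 237 in BXD83, Xbp1 from 49.3 in BXD64 through 78.9 to 149 in BXD83, and Asns from 613 in BXD84 through 1013 to 1632 in BXD74. Hspa5 ran from 386 in BXD65 through 633 to 949 in BXD74. Atf3 (3.12 to 9.84), Ddit3 (3.11 to 11.8), Herpud1 (6.97 to 23.7) and Dnajb9 (10.2 to 24.3) had medians of 5.51, 5.44, 13.1 and 15.

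Co-variation across the BXD lines was measured for all 45 pairs of members in each state, as Pearson's r and Spearman's rho of log2(signal + 1) with p from 100000 shuffles of the lines. A pair was called where limma, regressing all 12728 other genes on each member of the pair, gave an adjusted p under 0.05 in both directions. In EpiLCs 26 of 45 pairs were called, 23 positive and 3 negative. In ESCs 16 of 45 were called, all positive. Over all pairs of genes the median r was 0.0005 in ESCs and 0.0035 in EpiLCs, and r passed 0.5 in 5.43% and 17% of pairs.

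The background of these calls differed by member. In EpiLCs the regression called 54.7% of genes for Atf4, 16.4% for Atf3, 0.471% for Ddit3, 16.5% for Chac1, 0.998% for Trib3, 24.9% for Asns, 17.7% for Xbp1, 67.2% for Hspa5, 13.4% for Herpud1 and 70.1% for Dnajb9. In ESCs it called 33.2% for Atf4, 14.2% for Atf3, 28.9% for Ddit3, 24.2% for Chac1, 15% for Trib3, 12.9% for Asns, 25.6% for Xbp1, 23.8% for Hspa5, 16% for Herpud1 and 1.96% for Dnajb9. Atf4, Hspa5 and Dnajb9 in EpiLCs thus went with most of the genes measured, and their pairs are to be read against that share.

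In EpiLCs the ATF4 arm co-varied as a block: 14 of its 15 pairs were called, with r from 0.37 to 0.90 and a median of 0.79. Chac1 and Trib3 had the highest r of the arm, 0.90 (rho 0.87, permutation p = 1e-05 for both, the smallest that 100000 shuffles can give; limma adjusted p = 1.52e-09). It was 0.87 without the 2 lines farthest from the Chac1 median. Chac1 and Asns had an r of 0.86 (rho 0.81, permutation p = 1e-05; 0.81 without 2 lines; limma adjusted p = 1.29e-07), and Atf3 and Asns an r of 0.84 (rho 0.76, permutation p = 1e-05; 0.74 without 2 lines). Atf4 itself had r of 0.37 to 0.69 with the other 5, which had 0.67 to 0.90 among themselves. With the first principal component of the EpiLC libraries removed, its r was 0.89 with Chac1, 0.87 with Asns, 0.86 with Atf3, 0.82 with Trib3 and 0.55 with Ddit3. Its r with Chac1 was 0.62 (rho 0.47, permutation p = 0.00012 and 0.0068; limma adjusted p = 0.00321), and 0.45 without the 2 farthest lines. The pair of Atf4 and Ddit3 was not called (r 0.37, limma adjusted p = 0.278). Without the 2 farthest lines of each regression, 7 of the 15 pairs of the arm were called and the median r was 0.66.

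Herpud1 did not go with the rest of the ER arm. All 6 of its pairs with the ATF4 arm were called in EpiLCs, with r from 0.64 to 0.93, and Chac1 and Herpud1 had the highest r of any 2 members, 0.93 (rho 0.92, permutation p = 1e-05; 0.90 without the 2 farthest lines; limma adjusted p = 2.42e-11). With Hspa5 its r was 0.10 and with Dnajb9 0.10. Within the ER arm 2 of 6 pairs were called, 1 positive and 1 negative. Hspa5 and Dnajb9 had an r of 0.68 (rho 0.65, permutation p = 3e-05 and 8e-05; limma adjusted p = 2.28e-05). Both followed the library total (r 0.81 and 0.80) and the first principal component of the EpiLC libraries (0.80 and 0.86), which held 36.5% of the variance and itself had an r of 0.92 with the library total. With that component removed their r was -0.0070, and under quantile scaling it was 0.0049 (limma adjusted p = 0.997). After division by the library total the pair was still called. The total had an r of 0.01 with Chac1 and of 0.66 with Atf4, and the pairs of Atf4 with Hspa5 (0.60) and with Dnajb9 (0.55) were called with the component in place and not after its removal. The ATF4 arm was called in 15 of 15 pairs after it.

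Xbp1 was on the opposite side in EpiLCs, with negative r to every other member. The called pairs were those with Atf4 (r -0.54, rho -0.48, permutation p = 0.0011 and 0.005), Atf3 (r -0.50, rho -0.55, permutation p = 0.0033 and 0.0013) and Herpud1 (r -0.48, rho -0.41, permutation p = 0.0058 and 0.019), with limma adjusted p of 0.0119, 0.0214 and 0.0358. None of these 3 was called without the 4 chromosome 11 lines. After division by the library total, Xbp1 with Hspa5 was called as well (r -0.49, limma adjusted p = 0.0159). Under that division Xbp1 with Herpud1 was not called (r -0.37, limma adjusted p = 0.116). The signal of Xbp1 had an r of 0.72 with the median of chromosome 11 in EpiLCs and of 0.58 in ESCs. Without those lines 22 of 45 EpiLC pairs were called, 13 of 15 in the ATF4 arm.

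**Figure D3:**
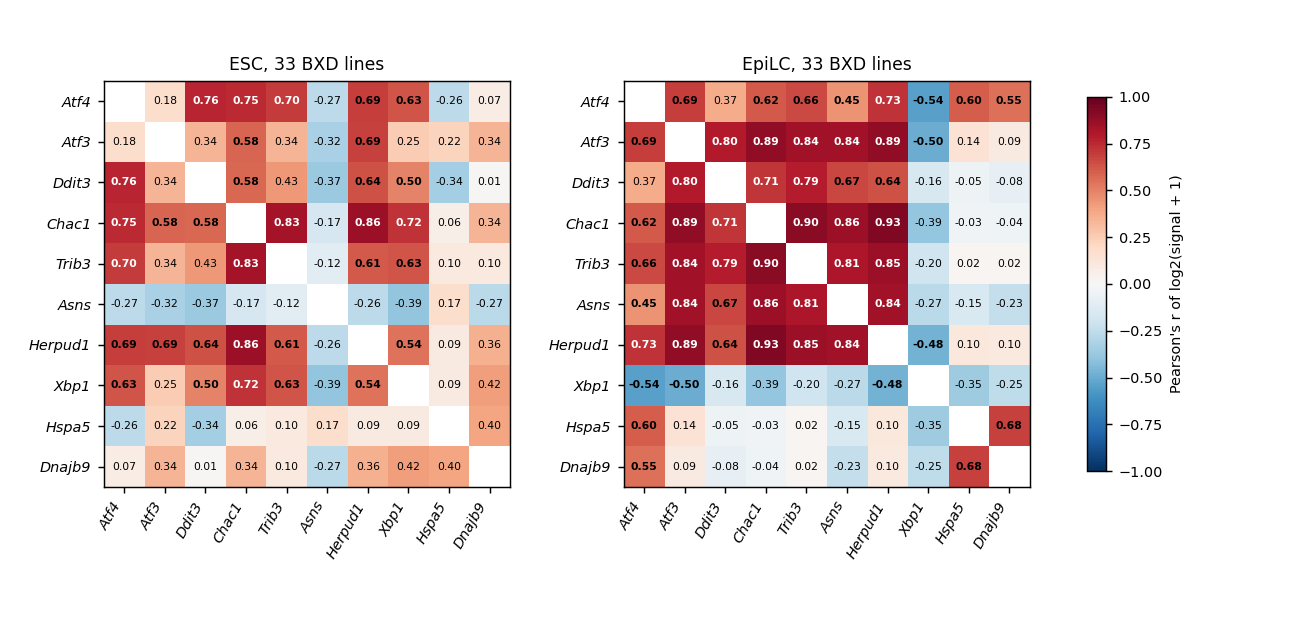
Pearson's r of log2(signal + 1) over the 33 BXD lines for each pair of the 10 genes in ESCs (left) and EpiLCs (right), on a colour scale from -1 to 1; bold type marks the pairs called by limma in both directions. The block of Atf3, Ddit3, Chac1, Trib3, Asns and Herpud1 is 0.64 to 0.93 on the right, and the row of Xbp1 is mostly positive on the left and negative throughout on the right.

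In ESCs the ATF4 arm was less of a block: 6 of its 15 pairs were called, and r ran from -0.37 to 0.83 with a median of 0.34. Atf4 was here closer to Ddit3, Chac1 and Trib3 than Atf3 was. Its r was 0.76 to Ddit3 (rho 0.74, permutation p = 1e-05, limma adjusted p = 1.32e-05, r 0.75 without 2 lines), 0.75 to Chac1 and 0.70 to Trib3. Its pairs with Atf3 (0.18) and Asns (-0.27) were not called. With the first principal component removed, Atf3 had the higher r with Chac1 (0.81 against 0.70), and Atf4 with Ddit3 (0.65 against 0.61) and Trib3 (0.64 against 0.52). Chac1 and Trib3 again went together (r 0.83, rho 0.84, permutation p = 1e-05; 0.79 without 2 lines; limma adjusted p = 4.08e-06). Asns stood apart from all, with no called pair and r of -0.39 to 0.17. Herpud1 was again with the ATF4 arm, in 5 of 6 pairs (all but Asns), and its r with Chac1 was 0.86 (rho 0.84, permutation p = 1e-05; 0.86 without 2 lines; limma adjusted p = 5.35e-07). Neither Hspa5 nor Dnajb9 had a called pair in the values as deposited, and their r with each other was 0.40 (rho 0.42, permutation p = 0.023 and 0.014; limma adjusted p = 0.186). The pairs of Xbp1 with Hspa5 (r 0.54, limma adjusted p = 0.014) and with Dnajb9 (0.55, 0.0216) were called once the first principal component of the ESC libraries was removed, and that with Dnajb9 also after division by the library total (0.0457).

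Xbp1 went with several ATF4-arm genes in ESCs. Its r was 0.72 with Chac1 (rho 0.69, permutation p = 1e-05; 0.63 without 2 lines; limma adjusted p = 7.74e-05), 0.63 with Atf4, 0.63 with Trib3, 0.50 with Ddit3 and 0.54 with Herpud1, all called. With the first principal component removed, the pairs with Atf4 (r 0.43, limma adjusted p = 0.0633) and Ddit3 (0.31, 0.199) were not called, those with Chac1, Trib3 and Herpud1 were, and Atf3 was added (0.51, 0.0188). That setting called 22 pairs, among them negative ones of Asns with Xbp1 (-0.46) and Ddit3 (-0.43). The ESC library total moved with several of these genes, at r of -0.56 for Atf4, -0.58 for Ddit3, -0.52 for Chac1, -0.51 for Xbp1 and -0.48 for Herpud1. Dividing by the total gave 18 called pairs, and leaving out the chromosome 11 lines gave 15. Average-linkage clustering into 3 groups, which describes the same r values, put Xbp1 and Herpud1 with Atf4, Atf3, Ddit3, Chac1 and Trib3 in ESCs, and left Hspa5 with Dnajb9 and Asns alone. With the first principal component removed it put Xbp1 with Hspa5 and Dnajb9 instead. In EpiLCs it put Asns and Herpud1 with those 5, and left Hspa5 with Dnajb9 and Xbp1 alone. With the component removed Hspa5 was in the larger EpiLC group, and Dnajb9 and Xbp1 were each alone. With the median of each chromosome removed, Atf4 was instead with Hspa5 and Dnajb9 in EpiLCs, while the ESC groups were unchanged. Cut into 4 groups, the EpiLC values as deposited left Atf4 alone.

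**Figure D4:**
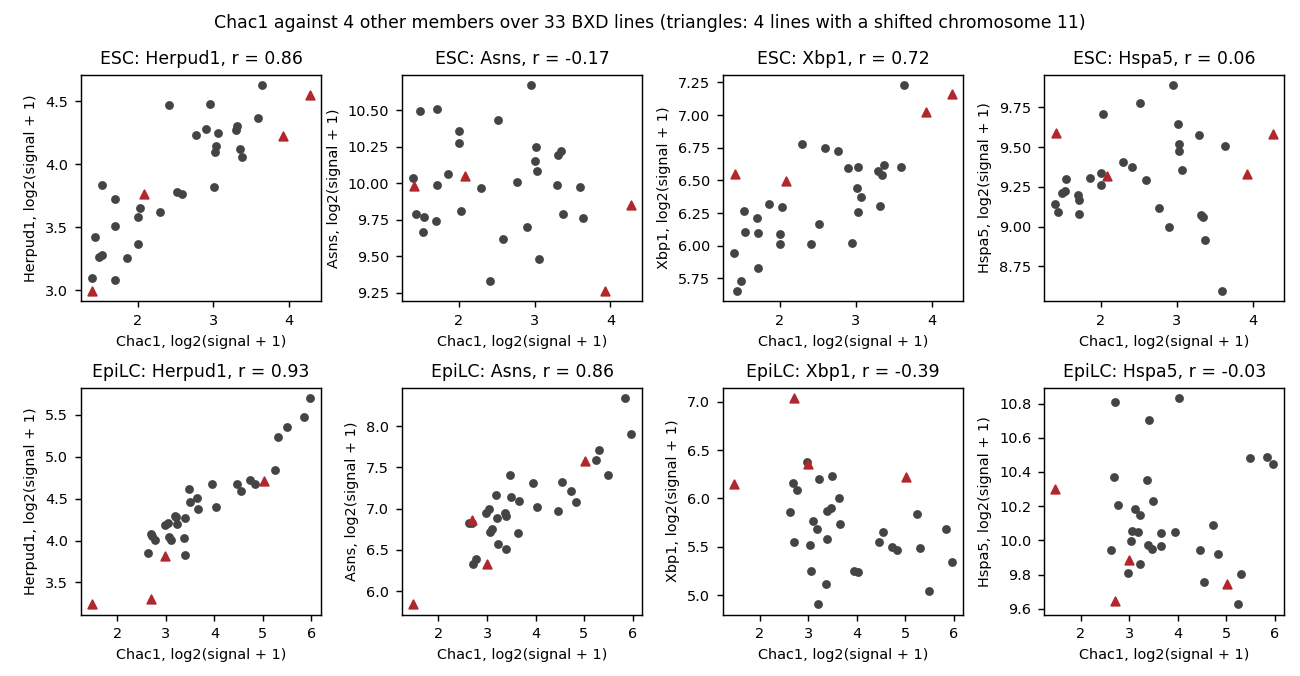
Log2(signal + 1) of Chac1 (horizontal axes) against Herpud1, Asns, Xbp1 and Hspa5 (vertical axes) in 33 BXD lines in ESCs (top) and EpiLCs (bottom), with triangles for the 4 chromosome 11 lines. Herpud1 rises with Chac1 in both states (r 0.86 and 0.93), Asns only in EpiLCs (0.86, against -0.17 in ESCs), and Xbp1 turns from 0.72 to -0.39.

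The change of partners between the states was tested as a difference of regression slopes, with the libraries of both states treated as independent although they come from the same lines. It was called by limma in 12 of 45 pairs, and in 11 of the same 12 with the line as a block (all but Asns with Trib3, adjusted p = 0.0674). Asns gained in its pairs with Atf3 (r higher by 1.16 in EpiLCs, limma adjusted p = 0.000757), Chac1 (1.03, 0.00223), Herpud1 (1.10, 0.00397), Ddit3 (1.04, 0.0134), Atf4 (0.71, 0.021) and Trib3 (0.92, 0.0424). Xbp1 lost in its pairs with Atf4 (-1.17, limma adjusted p = 0.00023), Chac1 (-1.11, 0.000882), Herpud1 (-1.02, 0.00603), Atf3 (-0.75, 0.0267) and Dnajb9 (-0.67, 0.0327). The last was Atf4 with Hspa5 (0.87, limma adjusted p = 0.000966), which was not called with the first principal components removed (0.17, 0.647). That setting also lost Xbp1 with Dnajb9 (-0.81, limma adjusted p = 0.0549). It added Xbp1 with Hspa5 (-0.94, limma adjusted p = 0.00229) and with Trib3 (-0.75, 0.0381). Without the 4 chromosome 11 lines 8 pairs were called. Xbp1 then kept its differences with Atf4 (-1.06, limma adjusted p = 0.00156) and Chac1 (-1.06, 0.00472) and gained that with Ddit3 (-0.89, 0.0425), while those with Herpud1 (-0.86, 0.0513), Atf3 (-0.53, 0.165) and Dnajb9 (-0.46, 0.195) were lost. Asns then lost those with Atf4 (0.61, 0.083) and Trib3 (0.66, 0.179). Of all genes, such a difference was called for 43% with Atf4, 22.8% with Asns, 19.1% with Xbp1 and 47.0% with Hspa5.

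The level of a line in ESCs was then compared with its level in EpiLCs. The r between the states over the 33 lines lay between -0.31 and 0.32 for the 10 members, and none of these r had a permutation p under 0.05. By ranks, Atf3 (rho -0.41, permutation p = 0.018) and Chac1 (rho -0.36, permutation p = 0.043) passed 0.05 before adjustment over the 10 members. Over 11752 genes the median r between states was 0.12, with quartiles of -0.05 and 0.31.

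Markers of cell state moved with the members over the BXD lines too, as descriptions over the same libraries. In EpiLCs the summed naive markers ran from 66.6 to 304 and had an r of -0.63 with Chac1, -0.63 with Atf3, -0.60 with Herpud1, -0.52 with Asns and 0.64 with Xbp1. Without the chromosome 11 lines these r were -0.58 for Chac1 and 0.60 for Xbp1. Primitive endoderm markers had an r of -0.57 with Hspa5 and -0.63 with Dnajb9. In ESCs the naive sum had an r of -0.61 with Xbp1, 0.58 with Asns and -0.29 with Chac1, and the core pluripotency sum had an r of 0.67 with Asns. The EpiLC marker sum in ESCs had an r of 0.62 with Xbp1, 0.53 with Dnajb9, 0.43 with Chac1 and -0.45 with Asns. Fibroblast markers, whose ESC sums ran from 1622 to 8217, had r of -0.40 (Xbp1) to 0.35 (Atf3) with the members in ESCs. In EpiLCs their r was -0.50 with Hspa5, -0.48 with Dnajb9, -0.36 with Atf4 and -0.10 with Chac1. The part of these markers in the co-variation was not tested.

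The other ATF4 targets joined Chac1 in EpiLCs. Of 44, 31 had a positive regression on Chac1 called by limma and none a negative one, against 8.4% of all genes positive and 8.14% negative. Their median r was 0.62. Vldlr (r 0.93, limma adjusted p = 6.79e-12), Pck2 of mitochondrial phosphoenolpyruvate synthesis (0.93) and Mthfd2 of mitochondrial folate metabolism (0.91) were the closest, followed by Pycr1 (0.86). With Asns 38 of 44 were positive and none negative, against 13.9% of genes positive. In ESCs 14 were positive and 1 negative with Chac1, against 11.1% and 13.1% of genes, and their median r was 0.08. The glycine transporter gene Slc6a9 (0.89), Slc1a4 (0.85) and Aldh18a1 of proline synthesis (0.84) were the closest there, and Sesn2 was the negative one (-0.64). With Asns 12 of 44 were positive in ESCs, against 6.23% of genes.

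Other ER folding and degradation genes were next set against Hspa5, Xbp1 and Chac1. With Hspa5 in ESCs, 16 of 42 were positive and 1 negative, against 12.7% of genes positive. Manf, a secreted ER stress protein gene (r 0.80), the co-chaperone gene Dnajb11 (0.78) and Creld2 (0.74) led, and Ero1l was negative (-0.61). In EpiLCs 15 were positive and 12 negative with Hspa5, shares of 35.7% and 28.6% where 31.3% and 36.0% of all genes were. With Xbp1, 10 were positive and none negative in EpiLCs (11% of genes positive), among them Edem2 of ER-associated degradation (0.85), Derl3 (0.69) and the chaperone gene Canx (0.69). With Xbp1 in ESCs, 12 were positive and 3 negative (12.7% of genes positive). With Chac1 in EpiLCs, none was positive and 4 were negative, led by Derl1 (-0.73), where 8.4% and 8.14% of all genes were. With Chac1 in ESCs, 10 were positive, led by Sdf2l1 (0.75) and Wfs1 (0.73), and 3 negative, where 11.1% and 13.1% of all genes were. The negative counts were thus near or below the shares of all genes.

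**Figure D5:**
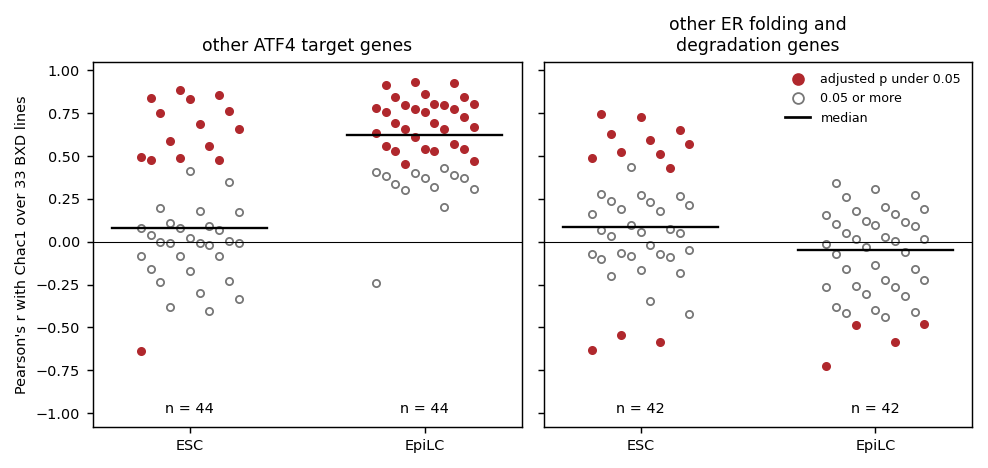
Pearson's r with Chac1 over 33 BXD lines (vertical axes) for 44 other ATF4 targets (left) and 42 other ER folding and degradation genes (right), 1 point per gene in each state; filled points have a limma adjusted p under 0.05 and the bar is the median. The ATF4 targets move from a median of 0.08 in ESCs to 0.62 in EpiLCs. The called ER genes lie on both sides of 0 in ESCs and below 0 in EpiLCs.

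The genes nearest to Chac1, Hspa5 and Xbp1 by r over the whole table were then listed. For Chac1 in EpiLCs they were Vldlr, Pck2, Herpud1, the growth factor gene Vegfa and Mthfd2, and in ESCs Slc6a9, Herpud1, Slc1a4, Aldh18a1 and the alanine transaminase gene Gpt2. Herpud1 was the nearest of 12728 genes to Atf3, and Atf3 the nearest to Ddit3, in EpiLCs. Chac1 was the nearest to Trib3 and to Herpud1 in ESCs. Calr, an ER chaperone gene, was nearest to Hspa5 in EpiLCs (r 0.93), followed by Actr3, Npc2, Myl12a and Sdhaf4. In ESCs Slc11a2 (0.86), Oas1a, Aven and Ccne1 came before Manf. The 5 genes nearest to Xbp1 in ESCs, Ezh1 (0.88), Gatsl3, Cabp7, Smarcd2 and Ehbp1, all lie on chromosome 11, as Xbp1 does, and in EpiLCs Edem2 (0.85) was the nearest, followed by Dnajc21, Nr5a2, Arhgap44 and Ube2z.

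Chromatin accessibility at the promoters was read from ATAC-seq, which counts fragments that a transposase cuts from open chromatin. Each member had 1 region over its start in each state. The regions were not the same intervals in both states: that of Asns was chr6:7691955-7697929 in ESCs and chr6:7691973-7694182 in EpiLCs. Those of Atf4 covered the whole gene. Differences are D2 minus B6 in log2(value + 0.1), tested with limma over all regions, with 3 lines per strain. In EpiLCs all 10 member promoters were lower in D2. Of 100415 regions 58.2% were called (25.6% higher and 32.6% lower), and of the 10023 regions at least as strong as the weakest member promoter 73.5% were lower and 5.43% higher, with a median difference of -0.22. The shift of the 10 promoters is thus close to that of strong regions as a whole.

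Atf3 and Chac1 differed from it most. The Atf3 promoter measured 61.1, 64.4 and 61.5 in B6 EpiLCs and 45.1, 46.6 and 44.2 in D2 EpiLCs, a difference of -0.46 (limma adjusted p = 2.97e-12). The Chac1 promoter measured 24.4, 24.2 and 25.6 in B6 and 18.8, 17.8 and 19.3 in D2, a difference of -0.41 (limma adjusted p = 5.72e-08). D2 lines were below B6 lines for both, and the share of all regions without overlap was not counted. Under quantile scaling, which removes a shift shared by all regions, these 2 promoters were the members still called, at -0.25 and -0.22. The other 8 members differed by -0.16 (Dnajb9) to -0.29 (Asns) in the values as deposited.

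In ESCs 7 of 10 member promoters were called, 6 higher and 1 lower in D2, against 46.9% of 112226 regions (22.2% higher and 24.7% lower). Among 15412 regions at least as strong as the weakest member, 34.4% were higher and 15.4% lower, with a median difference of 0.10. The Asns promoter had the largest difference of the members (0.31, limma adjusted p = 8.92e-05). It was called in all 6 fits without 1 line. It measured 62.9, 60.4 and 58.1 in B6 and 78.7, 74.7 and 72.1 in D2, without overlap. The share of all regions without overlap was not counted here either. The Asns RNA difference in the same state did not pass the test (0.13, limma adjusted p = 0.353). Trib3 was the lower one (-0.20, limma adjusted p = 0.0107). Chac1 (0.23) and Xbp1 (0.21) were higher, the former called in 2 of 6 fits without 1 line and the latter in 5.

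TRIM28, a corepressor known for silencing transposable elements, was measured by ChIP in ESCs. Its signal over chr6:7691879-7700946, which spans the Asns start, was 34.0, 31.5 and 34.2 in B6 lines and 63.2, 73.2 and 81.1 in D2 lines. The D2 lines were above the B6 lines without overlap here, as in 25.5% of 94211 TRIM28 regions, and 47.4% did not overlap in one direction or the other. P300, a histone acetyltransferase of active regulatory regions, measured 74.5 and 65.9 in B6 and 83.7 and 105 in D2 over its own region there. POU5F1, the core pluripotency factor, measured 39.1 and 35.5 in B6 and 38.8 and 44 in D2. These regions were chosen for the gene and not tested over all regions.

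Over the BXD lines, promoter accessibility followed the gene's own RNA for some members. In ESCs r was 0.73 for Asns (rho 0.70, limma adjusted p = 0.0014), 0.67 for Xbp1 (0.00209), 0.61 for Chac1 (0.0441) and 0.58 for Ddit3 (0.0292), against 3.66%, 8.91%, 1.23% and 2.28% of the 56113 regions at or above the median level called for the same RNAs. In EpiLCs it was 0.67 for Atf3 (limma adjusted p = 0.00096), 0.57 for Chac1 (0.00947) and 0.58 for Xbp1 (0.00701), against 20.2%, 20.8% and 14.8% of 50208 such regions. Ddit3 in ESCs (adjusted p = 0.263 by limma) and Xbp1 in EpiLCs (0.0561) were lost without the 2 farthest lines. Without the chromosome 11 lines the relation of Xbp1 in EpiLCs was 0.16 (limma adjusted p = 0.667), that of Xbp1 in ESCs was 0.61 (0.0288), and Trib3 in ESCs was called (0.61, 0.0147). The other 5 were called in that setting as well. Atf4, Hspa5, Herpud1, Dnajb9 and Trib3 showed no called relation over all 33 lines in either state, with r from -0.41 to 0.47.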

How the data were processed

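The members and gene lists were chosen with earlier results of these data known. RNA values were the authors' normalized signal per gene, as deposited, and ATAC-seq and ChIP-seq values the authors' normalized signal per region, as deposited. Build mm10 and the tools HISAT2 2.0.5, Bowtie 1.0.0 and MACS 1.4.2 are listed, without their roles, per the submitters' processing notes. The way the authors counted and scaled the signal is not given in the sources used. Every column was matched to its sample through the labels. The ATAC values of the deposited tables were whole multiples of 1 read per library (100% of values within 0.01), which gave 8.51 to 23.1 M reads per ESC library and 2.24 to 24.3 M per EpiLC library. For RNA the depth is unknown. Gene positions were read from GENCODE (GRCm38) and promoters from RefSeq (GRCm38.p6).

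Genes with a mean of at least 0.5 were tested on log2(signal + 1), and regions on log2(value + 0.1), with limma 3.58.1 (trend and robust) in R 4.3.3, with Benjamini-Hochberg adjustment over all genes or regions. The fold changes are on these scales, which understate changes of low genes. The edgeR 4.0.16 quasi-likelihood test on the recovered reads was an alternative. Strain contrasts used 3 lines per strain. ESC and EpiLC libraries of a parental line come from the same line, and the interaction was refitted with the line as a block. Replicate numbers do not pair lines of different strains. Co-variation used Python 3.11.15 with SciPy 1.17.1 and NumPy 2.4.6, and pandas 2.3.3 and matplotlib 3.10.9 served tables and figures. The limma and edgeR tests of strain differences, regressions, slope differences and accessibility were tested on simulated data.

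All members were named. From each fixed list the genes with the largest called differences in each direction, or the highest and lowest r, were named. The slope difference between states, the relation of accessibility to RNA, division by the library total the runs without the chromosome 11 lines and the line block of the slope differences were chosen after seeing the data. The F1 ATAC and embryoid body expression values were not analysed here.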

Additional observations from a re-analysis of the deposited data

Results flagged for a closer look

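For 7 members the D2 minus B6 difference itself differed between the states by the limma interaction test, as EpiLC difference minus ESC difference on the log2(signal + 1) scale. The values were -1.58 for Chac1, -1.50 for Atf3, -1.04 for Asns, -1.01 for Ddit3, -0.85 for Trib3 and -0.53 for Herpud1, all lower in EpiLCs, and 0.63 for Xbp1. The test called 36.0% of all genes, and it called 7 of 8 naive markers higher. Their part in the result was not tested.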

How the results depend on the processing

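In EpiLC RNA, all 80 member results under other pseudocounts, scalings, filters and fits kept direction and side of the threshold, and 58 of 60 did with 1 line left out. The ESC count of 2 called members became 0 without limma's trend and robust options, 1 after division by library totals and 1 with a replicate block. With 1 line left out, ESC fits called 3306 to 5213 genes and 0 to 3 members, EpiLC fits 6198 to 7609 genes and 7 to 8 members, interaction fits 3526 to 4769 genes and 6 to 7 members, and F1 fits 127 to 1183 genes and 0 to 1 members. ATAC fits then called 43552 to 55860 ESC regions and 4 to 5 members, and 51397 to 56751 EpiLC regions and 9 to 10 members. Restricting ATAC to regions at or above the median level left 26658 ESC and 32644 EpiLC calls among fewer regions. Quantile scaling left 4 ESC and 2 EpiLC member promoters. Under it the EpiLC differences of Herpud1 (0.0047, limma adjusted p = 0.944) and Dnajb9 (0.039, 0.519) changed sign and were not called. The cause was not tested. Called EpiLC pairs fell to 17 without the 2 farthest lines, with fewer lines in each fit, and ranged from 18 to 26 under the other alternatives, and ESC pairs from 15 to 22. The r of Hspa5 with Dnajb9 in EpiLCs fell to -0.0070 once the first principal component was removed, and the pair was not called (limma adjusted p = 0.986).

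Replicate numbers in the labels do not pair B6 with D2 lines: same-numbered lines had correlations of deviations from -0.39 to 0.0067, and not every line matched its own number best. With the replicate block the ESC fit called 3470 genes and 1 member, the EpiLC fit 6901 genes and 8 members, the ESC ATAC fit 47836 regions and 3 members, and the EpiLC ATAC fit 57068 regions and 10 members. The slope differences between states were called in 8 pairs without the chromosome 11 lines. With the cell line as a block, the interaction was called in 4222 genes and 7 members. No paired analysis was possible because the labels of the F1 lines carry no replicate number, for the F1 contrast, and because each BXD line has 1 library per state, for the co-variation within a state. With the line as a replicate block, the slope differences between states were called in 11 pairs. RNA depth is unknown, so the error of low genes such as Atf3 is known only from the spread between lines.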

Other observations

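Other stress genes were counted in the same way. Of 10 oxidative stress genes tested in EpiLCs, 5 were higher and 3 lower in D2 by limma, where 28.5% and 29% of all genes were: Osgin1, an NRF2 target, was 3.52 ± 0.596 in D2 and 0.30 ± 0.0531 in B6 (mean ± SD, n = 3; difference 1.79, limma adjusted p = 8.17e-07), and Me1, malic enzyme, was lower (-1.43). Over the BXD EpiLC lines 7 of these 10 had a negative regression on Chac1 and none a positive one, led by Gclc of glutathione synthesis (r -0.72), Nqo1 (-0.67) and Osgin1 (-0.64), against 8.14% of all genes. In ESCs 3 of 9 were negative, where 13.1% of all genes were.

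Among cytosolic heat shock genes, Hspb1 was higher in D2 EpiLCs (1.96, limma adjusted p = 2.31e-09). Of 12 such genes, 3 were higher (25%, against 28.5% of all genes) and none lower (against 29%). In D2 ESCs Bag3 was higher (0.95) and Hsp90ab1 lower (-0.54), with 3 higher (25%, against 17.3% of all genes) and 2 lower (16.7%, against 20.3%). Immediate early genes were lower in 6 of 14 in D2 ESCs (42.9%, against 20.3% of all genes), Fos most (-1.12). In EpiLCs 6 of 12 were higher (50%, against 28.5%), Egr1 most (1.32), and 2 lower (16.7%, against 29%), Jun most (-0.99).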
